A study of Mus musculus with 12 samples.

Results

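The 9 genes followed here encode subunits of glutamate receptors: the AMPA receptor subunits Gria1, Gria2, Gria3 and Gria4, the kainate receptor subunit Grik2, the NMDA receptor subunits Grin1 and Grin2b, and the metabotropic receptors Grm5 and Grm7. The probe sets followed were all those whose platform annotation names 1 of these genes and no other. This gave 21 of the 45101 probe sets of the array, for 8 of the 9 genes. Grin1 was named by none of them and was not analysed here. The series holds 12 Mouse Genome 430 2.0 arrays (Affymetrix). Of these, 2 carried RNA of pituitary tumors from homozygous POMC KO mice, in which both copies of the pro-opiomelanocortin gene are knocked out, 8 carried tumor RNA from heterozygous POMC KO mice, and 2 carried RNA of normal pituitary. The mice were untreated, and their strain, age and sex were not given in the sources used here. The methods call the normal material pooled mouse pituitary, so its arrays may share animals. The source names of the arrays give pituitary tissue, either normal or with heterozygous or homozygous knock-out of POMC, and name neither a tumor nor a lobe. The homozygous mice also differ from the heterozygous mice in having no intact Pomc allele left.

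Neighbouring tumor arrays formed 5 pairs that agreed at r = 0.997 to 0.998 across probe sets, with 0 to 4 probe sets more than 2-fold apart, while the normal arrays agreed at r = 0.993 with 309 probe sets apart. Each pair was averaged and counted as 1 sample. This left 1 homozygous sample, 4 heterozygous samples (named 1-2, 3-4, 5-6 and 7-8 after their arrays) and 2 normal samples. The pairing was read from the values, nothing in the labels says that the samples come from separate animals, and p-values measure the spread between these samples, which may be technical. In all comparisons that involve it, the homozygous sample was assumed to vary as the other groups did. Pomc, the targeted gene, was at 7.18 log2 units in the homozygous sample, 15.25 on average in heterozygous samples and 15.09 in normal samples. The homozygous sample was lower than normal, with a difference of −7.92 (limma, adjusted p = 1.11e-06), and the heterozygous samples differed from normal by 0.16 (adjusted p = 0.330). Tbx19, the factor that defines Pomc-lineage pituitary cells, was at 9.59 in the homozygous sample, 10.02 on average in heterozygous samples and 9.69 in normal samples. Other melanotroph and corticotroph markers went different ways. Heterozygous tumors differed from normal by 1.48 for Pax7, −2.84 for Neurod1, −1.44 for Crhr1, −0.97 for Pcsk1 and 0.74 for Drd2. For the homozygous sample these differences were 0.66, −0.04, 0.80, −0.45 and 0.01 in the same order.

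Glutamate is the main excitatory transmitter of the brain. AMPA, kainate and NMDA receptors are ion channels of several subunits that glutamate opens, whereas metabotropic receptors signal through G proteins, with Grm5 coupled to phospholipase C and Grm7 coupled to inhibition of adenylyl cyclase. Gria2 sets the properties of AMPA receptors, because its transcript is edited so that channels holding it let little calcium through, while channels built of Gria1 or Gria4 alone pass calcium. Endocrine cells of the anterior pituitary are electrically excitable and are known to carry glutamate receptors.

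The AMPA subunit genes that differed from normal in opposite directions are shown by their promoters, since Gria2 was higher and Gria4 lower in heterozygous tumors. RefSeq promoter windows of 300 bases (GRCm38.p6) were at hand for 5 of the 9 genes, Gria2, Gria4, Grik2, Grm7 and Grin1. The Gria2 window lies on the minus strand at chr3:80802786-80803085, around the RefSeq start used, within a gene spanning chr3:80681450-80804227. The Gria4 window lies on the minus strand at chr9:4796185-4796484, around the RefSeq start of a gene spanning chr9:4417893-4796234. Capitals mark CpG dinucleotides, and each sequence reads 5′ to 3′ on the gene's strand.
Gria2: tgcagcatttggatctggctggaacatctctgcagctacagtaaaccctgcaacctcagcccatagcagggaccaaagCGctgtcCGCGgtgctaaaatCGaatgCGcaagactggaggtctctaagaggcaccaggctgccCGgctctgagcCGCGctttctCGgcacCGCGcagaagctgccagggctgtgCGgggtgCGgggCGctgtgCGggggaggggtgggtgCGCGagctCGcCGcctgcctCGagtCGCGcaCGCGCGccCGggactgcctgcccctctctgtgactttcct
Gria4: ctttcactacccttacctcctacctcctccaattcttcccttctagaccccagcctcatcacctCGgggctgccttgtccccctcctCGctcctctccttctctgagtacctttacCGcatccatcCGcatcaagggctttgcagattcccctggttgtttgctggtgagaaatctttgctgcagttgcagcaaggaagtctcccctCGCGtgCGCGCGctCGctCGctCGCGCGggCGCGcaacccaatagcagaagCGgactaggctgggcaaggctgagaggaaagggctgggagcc
The Gria2 window holds 26 CpG dinucleotides at 65.7% G and C, and 16.9% of 32851 promoter windows hold at least as many. The Gria4 window holds 17 at 59.7% G and C, a number that 31.4% of the windows reach. The medians over all windows were 7 CpG dinucleotides and 52.7% G and C. On either strand, neither sequence holds the GC box GGGCGG (present in 35.7% of windows), the cAMP response element TGACGTCA (1.79%) or the TATA box TATAAA (13.6%). No match says only that these letters are not in the window.

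Of the 21 member probe sets, 12 were tested, meaning that they reached the median of all values (5.74 log2 units) in at least 2 arrays. A call required both an adjusted p below 0.05 and more than a 2-fold difference. In the homozygous tumor against normal pituitary, 2 of the 12 were called higher (a Grm5 and a Gria2 probe set), 0 lower, and 10 were not called, where 1.26% of all 24486 probe sets tested were called higher and 1.07% lower. At an unadjusted p under 0.05 the limma fit gave 4 higher and 2 lower. The share of all probe sets at that unadjusted threshold was not counted. By the one-way F test that the methods name, 6 of the 12 probe sets were called, beside 1261 of all 24486. That test took the 12 arrays as separate samples. Its p covers all 3 genotypes at once, so it does not test the homozygous difference alone. In heterozygous tumors against normal pituitary, 4 were called higher (3 of Gria2, 1 of Gria3), 3 lower (2 of Gria1, 1 of Gria4) and 5 were not called, where 4.91% of all probe sets were called higher and 3.77% lower. Both comparisons share the normal samples. In the homozygous tumor against heterozygous tumors, 1 was called higher (Grm5) and 11 were not called, where 0.212% of all probe sets were called higher. Without either of the 2 normal samples, 3 member probe sets were called in heterozygous tumors and 1 in the homozygous tumor, and without heterozygous sample 3-4, 1 was called in the homozygous tumor.

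Some probe sets passed the filter only through the group in which they were high, and so had to differ: Grm5 1455272_at through the homozygous arrays, Gria1 1435239_at through the normal arrays, Grm7 1443119_at through the heterozygous arrays and Gria3 1434728_at through the tumor arrays. The counts above are therefore a description of what was called. Over all 21 member probe sets, with no filter, the members had a median difference from normal pituitary of 0.08 log2 units in the homozygous tumor and −0.05 in heterozygous tumors, beside medians over all probe sets of −0.02 in the homozygous tumor and −0.01 in heterozygous tumors. The median size of the change without its sign was 0.44 in the homozygous tumor and 0.50 in heterozygous tumors, beside 0.18 over all probe sets in each comparison. The members were chosen with earlier results of these data known, so their larger size of change is a description and not an independent result.

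**Figure D1:**
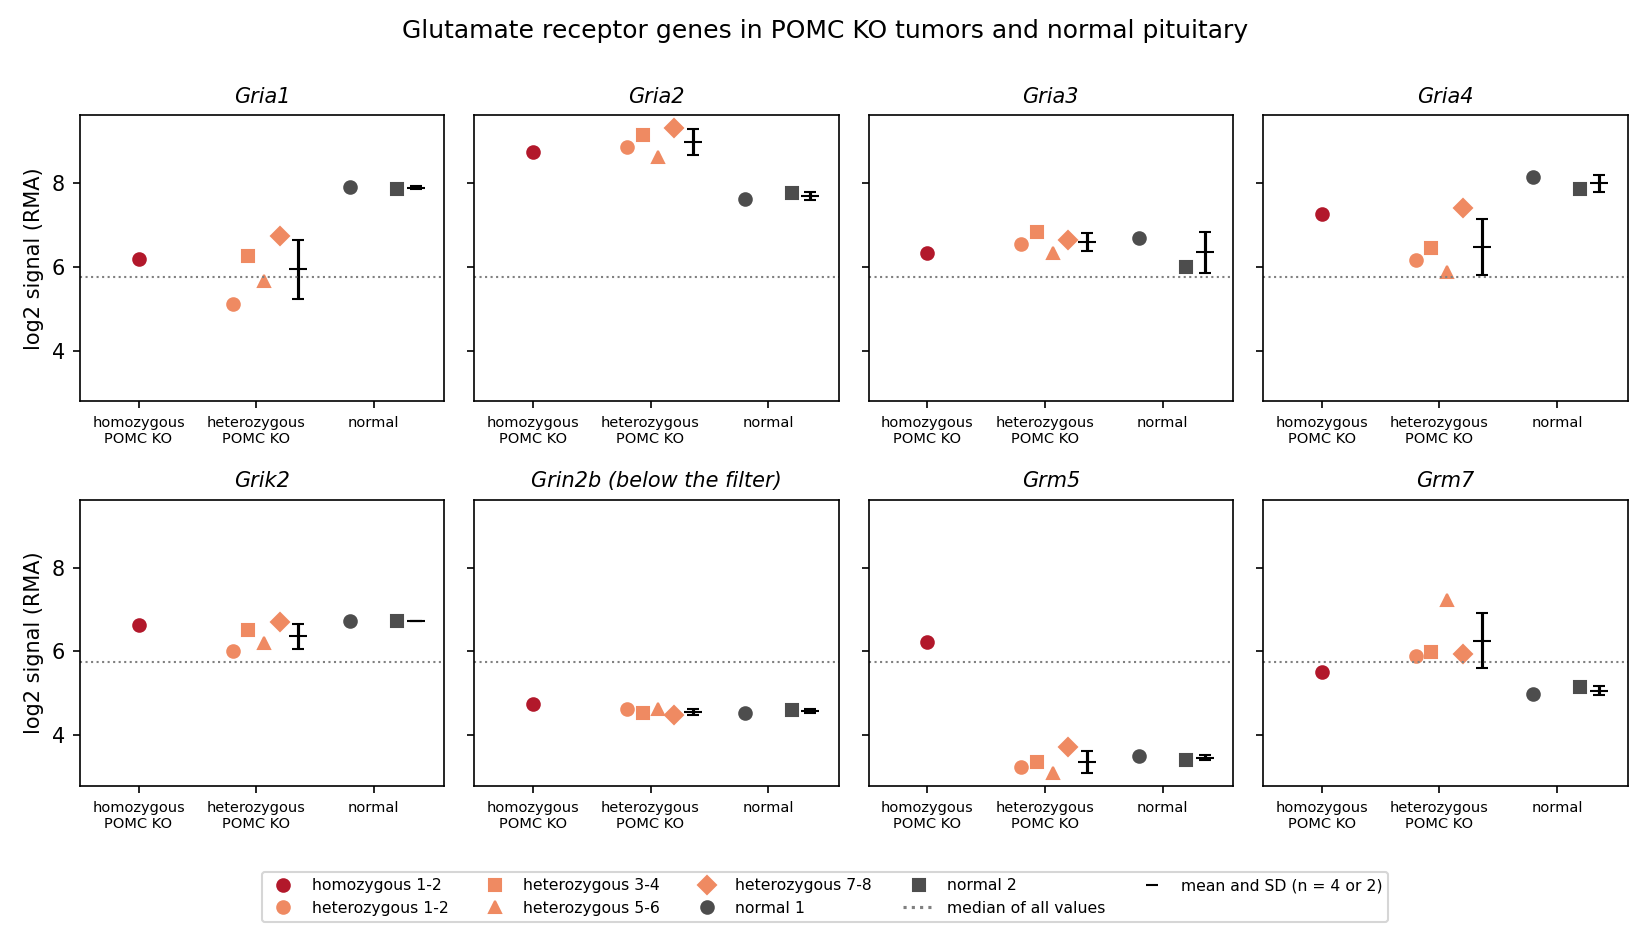
Level of 8 glutamate receptor genes in each sample, by the probe set that stands for the gene. The vertical axis is the log2 RMA signal, points are samples (homozygous tumor, heterozygous tumors, normal pituitary), black bars are mean and SD of the 4 heterozygous and 2 normal samples, and the dotted line is the median of all values, 5.74. Gria2 lies higher in every tumor sample than in normal pituitary, Gria1 and Gria4 lie lower, and Grm5 lies above the dotted line in the homozygous sample only. The share of all genes separated in this way was not counted.

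Gria2, the subunit that makes AMPA receptors tight to calcium, was higher in heterozygous tumors by all 3 of its probe sets. The probe set 1421970_a_at was at 8.74 in the homozygous sample, at 8.86, 9.15, 8.61 and 9.31 in heterozygous samples 1-2, 3-4, 5-6 and 7-8, and at 7.62 and 7.75 in normal samples. The probe set 1453098_at was at 7.94 in the homozygous sample, at 8.16, 8.22, 7.97 and 8.30 in heterozygous samples, and at 6.83 and 6.72 in normal samples. The probe set 1434146_at was at 7.81 in the homozygous sample, at 7.85, 8.28, 7.87 and 8.11 in heterozygous samples, and at 6.48 and 6.83 in normal samples. The tumor and normal values did not overlap at any of the 3, but the share of all probe sets without overlap was not counted. The homozygous values lay near the lower end of the heterozygous ones.

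In heterozygous tumors the Gria2 change was 1.30 log2 units (SE 0.20, 2.46-fold, adjusted p = 0.00449), 1.39 (SE 0.13, 2.62-fold, adjusted p = 0.000673) and 1.37 (SE 0.17, 2.59-fold, adjusted p = 0.00198) at the 3 probe sets in that order. For the homozygous tumor the corresponding differences from normal were 1.06 (SE 0.28, adjusted p = 0.104), 1.16 (SE 0.18, adjusted p = 0.0258) and 1.15 (SE 0.24, adjusted p = 0.0561), of which the second was called. The direct difference of the homozygous from the heterozygous tumors at 1421970_a_at was −0.24 (SE 0.26, adjusted p = 0.907). The heterozygous call at this probe set was made under every alternative run, with adjusted p at most 0.0485, and with the mean of its 3 probe sets the homozygous difference was 1.12 (adjusted p = 0.0452). By representative probe sets, 5.53% of 12316 genes were called higher and 4.55% lower in heterozygous tumors, while in the homozygous tumor 1.43% were called higher and 1.32% lower.

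Gria1, a subunit of calcium-permeable AMPA receptors encoded at chr11:57011571-57330244, was lower in heterozygous tumors at 1448972_at, the brighter of its 2 probe sets. It was at 6.18 in the homozygous sample, at 5.11, 6.26, 5.67 and 6.72 in heterozygous samples, and at 7.91 and 7.86 in normal samples. The probe set 1435239_at was at 4.92 in the homozygous sample, at 3.82, 4.66, 4.03 and 5.32 in heterozygous samples, and at 6.38 and 6.40 in normal samples. At both probe sets heterozygous sample 1-2 was the lowest and 7-8 the highest of the heterozygous samples. The change in heterozygous tumors at 1448972_at was −1.94 (SE 0.40, 3.84-fold lower, adjusted p = 0.0140). At 1435239_at it was −1.93 (SE 0.39, adjusted p = 0.0127), but this probe set passed the filter only through the normal arrays, and its heterozygous values lie near the floor of the array. In a fit of all probe sets its adjusted p was 0.0156. In the homozygous tumor the values −1.70 (SE 0.57, adjusted p = 0.175) at 1448972_at and −1.47 (SE 0.55, adjusted p = 0.220) at 1435239_at did not pass. Neither probe set was called in heterozygous tumors without normal sample 1 (adjusted p = 0.0942 at 1448972_at) or without normal sample 2 (adjusted p = 0.0813).

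Gria4, which forms fast calcium-permeable AMPA channels, was lower in heterozygous tumors at 1435722_at, the 1 tested probe set of its 3. It was at 7.26 in the homozygous sample, at 6.15, 6.46, 5.87 and 7.39 in heterozygous samples, and at 8.13 and 7.85 in normal samples. As for Gria1, heterozygous sample 7-8 was the highest of the tumor samples. The homozygous sample came next here, whereas at Gria1 1448972_at heterozygous sample 3-4 (6.26) lay above the homozygous sample (6.18). The lowest was heterozygous sample 5-6 here and 1-2 for Gria1. The change was −1.52 in heterozygous tumors (SE 0.38, 2.87-fold lower, adjusted p = 0.0290). The homozygous tumor differed from normal by −0.72 (SE 0.54, adjusted p = 0.538) and from heterozygous tumors by 0.80 (SE 0.49, adjusted p = 0.729). The heterozygous call was lost without heterozygous sample 1-2 (adjusted p = 0.0666) or 3-4 (0.0635), and without normal sample 1 (0.170) or 2 (0.105).

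The other Gria4 probe sets stayed below the filter. At 1440891_at the level was 4.48 in the homozygous sample, 3.42, 4.23, 3.33 and 4.92 in heterozygous samples, and 5.42 and 5.41 in normal samples, the same side of normal as the tested probe set, and in a fit of all probe sets the heterozygous difference of −1.44 had an adjusted p of 0.0607. At 1421351_at levels ran between 3.99 and 4.81 in all samples and the heterozygous difference was −0.52.

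**Figure D2:**
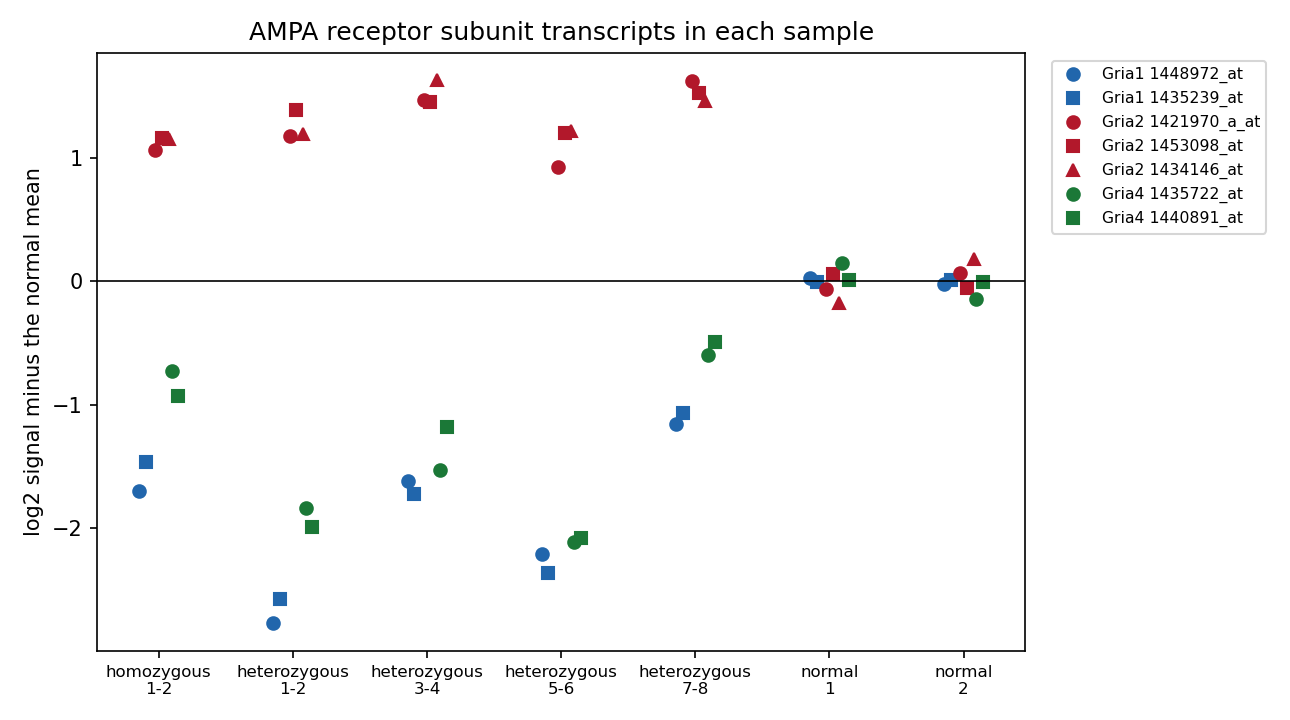
Probe sets of Gria1, Gria2 and Gria4 in each sample, as log2 signal minus the mean of the 2 normal samples (vertical axis), with tumor samples on the left and normal samples on the right. Points are samples, colours are genes and shapes are probe sets. The Gria4 probe set 1421351_at, with a heterozygous difference of −0.52, is not drawn. The Gria2 points of all 5 tumor samples lie near or above 1, and those of Gria1 and Gria4 lie below 0, nearest to it in heterozygous sample 7-8.

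Gria3, the X-linked AMPA subunit gene (chrX:41400819-41678601), gave different results at its 2 probe sets. At 1420563_at, the brighter, the level was 6.33 in the homozygous sample, 6.55, 6.84, 6.33 and 6.64 in heterozygous samples, and 6.69 and 5.99 in normal samples, so that the groups overlapped. The heterozygous difference there was 0.25 (SE 0.22, adjusted p = 0.443) and the homozygous one −0.01. At 1434728_at it was 5.83 in the homozygous sample, 6.56, 6.76, 5.92 and 6.25 in heterozygous samples, and 5.45 and 5.21 in normal samples. The heterozygous tumors were higher by 1.04 at that probe set (SE 0.23, 2.05-fold, adjusted p = 0.0185), close to the fold threshold, and the homozygous difference of 0.50 (SE 0.33, adjusted p = 0.476) did not pass. Of the 4 member probe sets called higher in heterozygous tumors, 1434728_at lay closest to the fold threshold. With housekeeping centring 3 were called higher, and likewise without heterozygous sample 1-2 or 3-4. The Gria2 call at 1421970_a_at was kept in each of these fits. The 2 normal samples differed from each other more at 1420563_at than at any other tested member.

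Grik2, a kainate receptor subunit, was measured by 2 tested probe sets, and neither was called. At 1457683_at the level was 6.64 in the homozygous sample, 6.01, 6.52, 6.21 and 6.69 in heterozygous samples, and 6.73 in both normal samples. The heterozygous difference was −0.37 (adjusted p = 0.216) and the homozygous one −0.09 (adjusted p = 0.897). At 1425790_a_at the level was 6.50 in the homozygous sample, 5.92 to 6.35 in heterozygous samples, and 6.19 and 6.55 in normal samples. Its heterozygous difference of −0.27 (adjusted p = 0.279) did not pass either.

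Grin2b, an NMDA receptor subunit that slows the channel's closing, had 4 probe sets and none reached the filter. Their levels ran between 2.55 and 4.79 over all samples. The largest difference was at 1457003_at, which was at 3.58 in the homozygous sample, 3.41 to 3.55 in heterozygous samples, and 3.92 and 4.02 in normal samples. In a fit of all probe sets its heterozygous difference was −0.50 (SE 0.10, adjusted p = 0.0132), below the fold threshold. Values this low are near the floor of the array, and no detection calls were used.

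**Figure D3:**
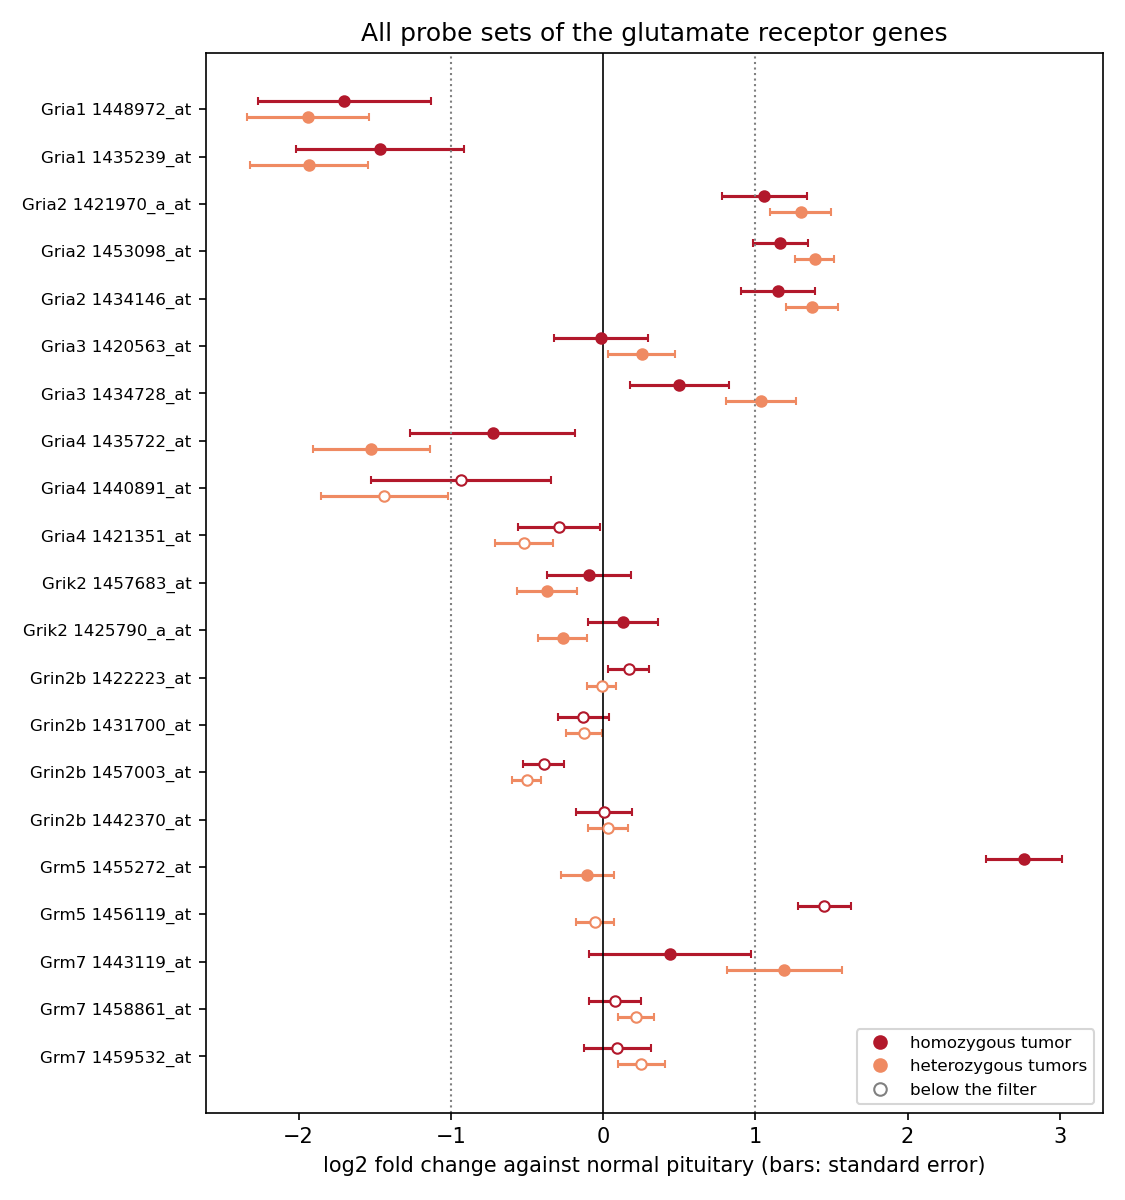
Difference from normal pituitary, in log2 units, of all 21 member probe sets, with homozygous above heterozygous values and bars for the standard error. Open points are probe sets below the filter, with the error from a fit of all probe sets, and dotted lines mark a 2-fold change. The 3 Gria2 probe sets lie to the right in both genotypes, the Gria1 probe sets to the left, and both Grm5 probe sets lie to the right for the homozygous tumor and near 0 for heterozygous tumors.

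Grm5, a metabotropic receptor that releases calcium from internal stores (chr7:87583981-88135063), stood high in the homozygous tumor alone. The probe set 1455272_at was at 6.23 in the homozygous sample, at 3.24, 3.36, 3.11 and 3.72 in heterozygous samples, and at 3.51 and 3.42 in normal samples. The homozygous arrays read 6.17 and 6.28, and no other array of the series exceeded 3.79. The homozygous tumor was higher than normal by 2.77 (SE 0.25, 6.80-fold, adjusted p = 0.00614) and higher than heterozygous tumors by 2.87 (SE 0.23, 7.31-fold, adjusted p = 0.00367), while heterozygous tumors differed from normal by −0.10 (SE 0.17, adjusted p = 0.707). By representative probe sets, 0.244% of genes were called higher in the homozygous tumor than in heterozygous tumors. The probe set passed the filter only through the homozygous arrays, and in a fit of all probe sets the adjusted p against heterozygous tumors was 0.00337. These tests rest on 1 homozygous sample, and since the lower values lie near the floor of the array, the fold changes are differences of RMA values rather than ratios of transcript number.

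The second Grm5 probe set, 1456119_at, did not reach the filter, and it was at 4.63 in the homozygous sample, at 3.03, 3.09, 3.11 and 3.28 in heterozygous samples, and at 3.03 and 3.33 in normal samples. The homozygous sample was again above all others. In a fit of all probe sets it was higher by 1.45 against normal (SE 0.17, adjusted p = 0.0137) and by 1.51 against heterozygous tumors (SE 0.16, adjusted p = 0.0164), where of all probe sets but controls 0.688% were called higher in the homozygous tumor than in normal pituitary and 0.184% than in heterozygous tumors.

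Grm7, a presynaptic receptor that curbs transmitter release, was not called in either genotype. At 1443119_at the level was 5.51 in the homozygous sample, 5.88, 5.98, 7.24 and 5.93 in heterozygous samples, and 4.99 and 5.15 in normal samples. Heterozygous sample 5-6 stood apart at the top. The heterozygous difference was 1.19 (SE 0.38, adjusted p = 0.0600) and the homozygous one 0.44 (SE 0.53, adjusted p = 0.718). The heterozygous difference was called with the 12 arrays as separate samples (adjusted p = 0.0261), with the pair as a random block (adjusted p = 0.0190) and with Xist as a covariate (difference 1.47, adjusted p = 0.0420). Across the alternatives it ranged from 0.82 to 1.47, so it also fell below the fold threshold. The probe set passed the filter only through the heterozygous arrays, and in a fit of all probe sets its adjusted p was 0.0742. The other Grm7 probe sets, 1458861_at and 1459532_at, were below the filter, with heterozygous differences of 0.22 and 0.25.

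In bulk tissue, fewer cells of a type and less RNA per cell cannot be told apart, and the hormone cell types differed between the groups. The summed signal of 8 gonadotroph and thyrotroph markers (Lhb, Fshb, Cga, Gnrhr, Nr5a1, Tshb, Gata2, Foxl2) was 23746 in the homozygous sample, 2443, 5364, 10414 and 17290 in heterozygous samples 1-2, 3-4, 5-6 and 7-8, and 47961 and 47292 in normal samples. Cga was the brightest of the 8 and makes up most of this sum. It was not called in either genotype, with differences of −0.43 in the homozygous tumor and −2.19 in heterozygous tumors. Against normal, 3 of the 8 were called lower in the homozygous tumor and 7 in heterozygous tumors. Of all genes, 1.32% were called lower in the homozygous tumor and 4.55% in heterozygous tumors. Gria1 and Gria4 were likewise highest in normal samples and, among the tumors, higher in heterozygous sample 7-8 and the homozygous sample than in heterozygous samples 1-2 and 5-6. Heterozygous sample 3-4 had a lower marker sum than 5-6 and more Gria1 and Gria4. The part of these cells in the Gria1 and Gria4 differences was not tested. Xist, which marks female tissue, was at 11.20 in the homozygous sample, 10.93 and 11.25 in heterozygous samples 3-4 and 7-8, and 4.57 to 5.07 in the other heterozygous and the normal samples. In the low-Xist heterozygous samples 1-2 and 5-6, Gria1 and Gria4 were lower than in the high-Xist samples 3-4 and 7-8. Among the low-Xist samples alone, with no test, Gria1 1448972_at was at 5.11 and 5.67 in heterozygous and 7.91 and 7.86 in normal samples, Gria4 1435722_at at 6.15 and 5.87 against 8.13 and 7.85, and Gria2 1421970_a_at at 8.86 and 8.61 against 7.62 and 7.75. With Xist as a covariate the Gria1 difference was −2.84 in the homozygous tumor and −2.50 in heterozygous tumors (adjusted p = 0.000870). The Gria4 difference was −1.67 in the homozygous tumor and −1.98 in heterozygous tumors (adjusted p = 0.00496) in that fit. The Gria2 difference in it was 0.57 in the homozygous tumor and 1.06 in heterozygous tumors (adjusted p = 0.00473). The homozygous sample was high in Xist and both normal samples were low, so Xist and genotype cannot be told apart in that comparison. The homozygous values of this fit rest mostly on the slope among the heterozygous samples.

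Markers of neurons, pituicytes and macrophages were also compared. The summed signal of 10 neuron markers was 11919 in the homozygous sample, 12480 to 14804 in heterozygous samples, and 9050 and 9322 in normal samples. Of the 9 tested, 0 were called in the homozygous tumor (1 higher at an unadjusted p under 0.05 in the limma fit), while Rbfox3 was called higher and Nefm lower in heterozygous tumors (3 higher and 4 lower at an unadjusted p under 0.05). The brightest were Snap25, Syt1 and Rbfox3, which make up most of the sum, whereas the heterozygous differences of Nefl, Nefm and Slc17a6 were −2.92, −1.57 and −2.74. For 8 pituicyte and astrocyte markers the sum was 1296 in the homozygous sample, 1150 to 1682 in heterozygous samples, and 1871 and 2087 in normal samples, with 2 of 6 tested called lower in the homozygous tumor and 4 in heterozygous tumors. Gfap and Rax, which define these cells, were below the filter. Sox2 was the brightest of the 8 and makes up most of the sum in the tumor samples. It was not called, with differences of −0.25 in the homozygous tumor and 0.26 in heterozygous tumors. The sum of 10 macrophage markers was 3282 in the homozygous sample, 4590 to 8694 in heterozygous samples, and 1140 and 1421 in normal samples, with 1 of 9 tested called higher in the homozygous tumor and 7 in heterozygous tumors. Over all genes, 1.43% were called higher and 1.32% lower in the homozygous tumor, and 5.53% higher and 4.55% lower in heterozygous tumors. The share of all genes at an unadjusted p under 0.05 was not counted. The part of these cells in the Gria2, Grm5 and Grm7 values was not tested.

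Genes that work with these receptors were followed as 6 lists of 80 genes, of which 71 had a probe set and 50 were tested. In the homozygous tumor 0 were called higher and 3 lower (1 and 8 at an unadjusted p under 0.05 in the limma fit), and in heterozygous tumors 4 higher and 5 lower (10 and 19 at an unadjusted p under 0.05). Of all genes, 1.43% were called higher and 1.32% lower in the homozygous tumor, and 5.53% higher and 4.55% lower in heterozygous tumors. These shares are for calls only. The share of all genes at an unadjusted p under 0.05 was not counted, so counts at that threshold are not read as a change of these lists. The other ionotropic subunits (5 tested of 11) had no called gene in either genotype, and their differences had a median of −0.20 in each, and at an unadjusted p under 0.05 the limma fit gave 0 in the homozygous tumor and 1 in heterozygous tumors. None of the 6 other metabotropic receptors was tested. Over all tested genes the medians were −0.03 in the homozygous tumor and 0.00 in heterozygous tumors.

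Of the auxiliary subunits, proteins that bind AMPA and kainate receptors and set their gating and traffic, 10 of 17 were tested. In the homozygous tumor 1 was lower, and in heterozygous tumors 2 were lower and 2 higher, with list medians of 0.06 in the homozygous tumor and 0.30 in heterozygous tumors. Nptx1, a secreted pentraxin that clusters AMPA receptors, was at 4.17 in the homozygous sample, 4.24 to 4.75 in heterozygous samples, and 6.47 and 6.53 in normal samples. It was lower in both genotypes, with differences of −2.34 in the homozygous tumor (adjusted p = 0.00632) and −2.02 in heterozygous tumors (adjusted p = 0.000389). Its relative Nptx2 was at 6.89 in the homozygous sample, 6.84 to 8.15 in heterozygous samples, and 6.28 and 6.46 in normal samples, and was higher in heterozygous tumors by 1.17 (adjusted p = 0.0370). Cnih2, a cornichon that carries AMPA receptors to the surface, was at 6.56 in the homozygous sample, 7.12 to 7.52 in heterozygous samples, and 6.16 and 6.26 in normal samples, and was higher in heterozygous tumors by 1.05 (adjusted p = 0.00248).

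Shisa9, which slows the recovery of AMPA receptors from desensitization, was called between the tumor genotypes, as Grm5 was. It was at 5.53 in the homozygous sample, at 2.94, 2.96, 2.89 and 3.57 in heterozygous samples, and at 5.65 and 5.92 in normal samples. The homozygous sample differed from normal by −0.26 (adjusted p = 0.706), and heterozygous tumors were lower than normal, with a difference of −2.70 (adjusted p = 0.000432). The homozygous tumor was higher than heterozygous tumors by 2.44 (SE 0.27, adjusted p = 0.0211), the 1 gene of the 50 called in that comparison. Its probe set reached the filter on 1 homozygous and 1 normal array only, and that of Nptx1 on the normal arrays only, so that both had to differ.

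Of the scaffold and trafficking genes, 17 of 21 were tested, and 1 was called, Homer2, a scaffold that ties group I metabotropic receptors such as Grm5 to calcium stores. It was at 7.78 in the homozygous sample, 8.50 to 8.93 in heterozygous samples, and 9.32 and 9.21 in normal samples. It was lower in the homozygous tumor, with a difference of −1.49 (adjusted p = 0.0200), and the heterozygous difference of −0.53 was below the fold threshold. The list medians were −0.19 in the homozygous tumor and −0.13 in heterozygous tumors.

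Of the genes for glutamate transport and metabolism, 11 of 17 were tested. The homozygous tumor had 1 lower, and heterozygous tumors had 3 lower and 1 higher, with list medians of −0.32 in the homozygous tumor and −0.57 in heterozygous tumors. Slc1a3, a glial glutamate transporter, was at 6.31 in the homozygous sample, 5.43 to 5.71 in heterozygous samples, and 8.78 and 8.87 in normal samples. It was lower in both genotypes, with differences of −2.51 in the homozygous tumor (adjusted p = 0.00323) and −3.23 in heterozygous tumors (adjusted p = 9.4e-05). Slc1a2, another glial transporter, was lower in heterozygous tumors (difference −1.94, adjusted p = 0.00523), and both belong to the pituicyte and astrocyte markers above. Slc1a4, a neutral amino acid transporter, was also lower there (difference −1.31, adjusted p = 0.00127). Slc1a1, a transporter of neurons and epithelia, was higher there (difference 1.01, adjusted p = 0.0437), a call that was lost in a fit of all probe sets (adjusted p = 0.0530). Slc17a6, which loads glutamate into vesicles, was not called, at 9.44 in the homozygous sample, 4.29, 6.09, 4.50 and 7.53 in heterozygous samples, and 8.40 and 8.28 in normal samples.

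Of the genes for editing and splicing of receptor transcripts, 7 of 8 were tested, and 1 was called. Rbfox3, a neuronal splicing factor, was at 10.62 in the homozygous sample, 10.80 to 11.31 in heterozygous samples, and 10.07 and 9.50 in normal samples, and was higher in heterozygous tumors by 1.30 (adjusted p = 0.00443). Adarb1, the enzyme that edits the Gria2 transcript, differed from normal by −0.10 in the homozygous tumor and −0.35 in heterozygous tumors and was not called. The list medians were 0.05 in the homozygous tumor and 0.10 in heterozygous tumors.

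**Figure D4:**
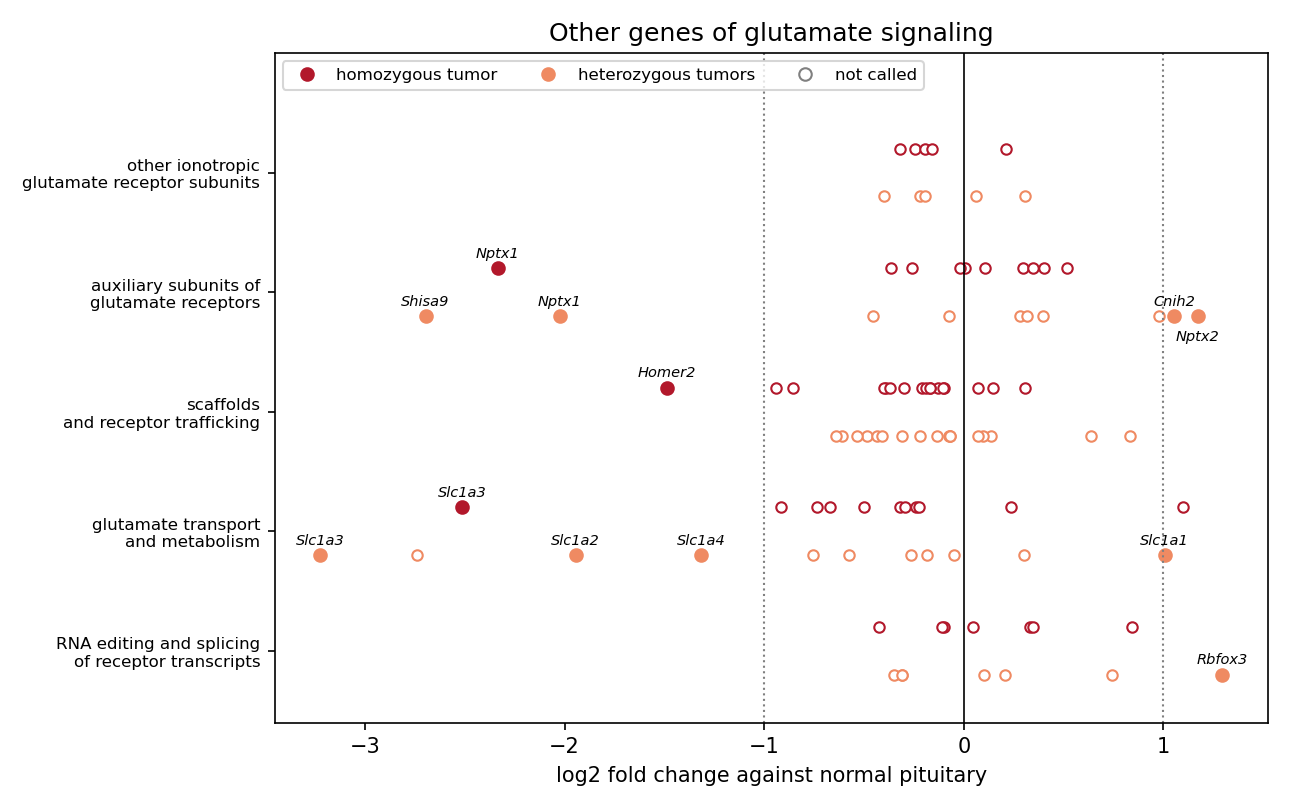
Difference from normal pituitary, in log2 units, of the 50 tested genes in 5 lists of glutamate signaling, with the homozygous tumor above heterozygous tumors in each list. Filled points are called and named, open points are not called, and dotted lines mark a 2-fold change. Most open points lie within the dotted lines, while Slc1a3 and Nptx1 lie to the left in both genotypes.

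The genes most like each of 4 members over the 7 samples were found among 12315 genes by Pearson correlation of their representative probe sets. These correlations describe the samples, which share 3 genotypes and 1 normalization, and with 7 points many genes reach high values. For Grm5 they were Kcnip4 (r = 0.997), Mtx1 (0.977) and Pttg1ip (0.976). Kcnip4 was at 7.31 in the homozygous sample, 4.95 on average in heterozygous samples and 5.01 in normal samples. For Gria1 they were Cdkl2 (0.997), Snap47 (0.995) and Zbed5 (0.993), and for Gria4 they were Zcchc12 (0.992), Lrrn1 (0.990) and Rapgef6 (0.988). For Gria2 they were Septin10 (0.993), Micalcl (0.992) and Rpa3 (0.992), of which Micalcl was at 7.77 in the homozygous sample, 8.08 in heterozygous samples and 5.72 in normal samples.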

How the data were processed

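The deposited values are log2 signals per probe set, which the authors made with Robust Multichip Average (RMA). The labels name Affymetrix Expression Console with no version, and the methods name GeneSpring. No detection call or scan date was used. Probes were named from the platform annotation: of 45101 probe sets, 34945 named 1 gene, 932 several and 9160 none, and 64 were controls.

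Probe sets were tested where 2 or more of the 12 arrays reached the overall median of 5.74 (24486, naming 12316 of 18193 genes). The tumor pairs were averaged, and 7 samples were fitted with limma 3.58.1 in R 4.3.3 (4 residual degrees of freedom, empirical Bayes, Benjamini-Hochberg over all tested probe sets). A call required both an adjusted p below 0.05 and more than a 2-fold difference. The tested probe set with the highest mean represents a gene. All members are named, with up to 4 genes of each pathway list, taken by the largest change among those called. Adarb1, Slc17a6, Xist and the cell type markers fall outside this rule and were added with their values seen. Alternatives covered the averaging of pairs, filter, normalization, variance model, test, left-out samples, replicate block, Xist as a covariate and choice of probe set. The fit was tested on simulated data. The number of arrays limits the precision. The members, lists and averaging of pairs were chosen with earlier results of these data known.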

Additional observations from a re-analysis of the deposited data

Results flagged for a closer look

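Grm5 (1455272_at) stood out because the homozygous and heterozygous effects against normal pituitary differed by the fit's own test, with a homozygous minus heterozygous difference of 2.87 log2 units (limma, adjusted p = 0.00367). Its probe set passed the filter only through the homozygous arrays and so had to differ; in a fit of all probe sets the adjusted p was 0.00337. Shisa9 (1435424_x_at) stood out by the same test, with a difference of 2.44 (adjusted p = 0.0211). It reached the filter on 1 homozygous and 1 normal array and on 0 heterozygous arrays, so it too had to differ, and its heterozygous values of 2.89 to 3.57 lie near the floor of the array; in a fit of all probe sets the adjusted p was 0.0185. Both differences rest on 1 homozygous sample.

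Among 31 groups of 4 heterozygous samples checked for a sample far from the others, 2 had one. Heterozygous sample 5-6 was at 7.24 for Grm7 (1443119_at), where the gap to the next sample was 0.927 of the group's range. Heterozygous sample 7-8 was at 3.57 for Shisa9, where the gap was 0.907 of the range. The limit was 0.829, and chance alone gives such a sample in about 1 in 20 groups.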

How the results depend on the processing

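Of 366 values of the 7 tested member genes under up to 18 alternative settings, 336 kept their direction and their side of the threshold, 18 passed it where the reported value did not, 6 no longer passed and 6 changed sign. Grin2b had no test in the reported fit, and 3 of its 51 values moved by more than the spread between samples. The sign changes were in differences that were not called. Gria1 in the homozygous against heterozygous tumors was 0.24, and −0.34 with Xist as a covariate, with a range of −0.035 to 0.50 on leaving out samples. Gria3 in heterozygous tumors against normal ranged from −0.094 to 0.60 on leaving out samples, and in the homozygous tumor from −0.36 to 0.33, with 0.24 for the mean of its probe sets. Grik2 in the homozygous tumor was 0.019 for the mean of its probe sets. Grm7 in heterozygous tumors was called with Xist as a covariate (1.47, adjusted p = 0.0420), with the 12 arrays as separate samples (adjusted p = 0.0261) and with the pair as a random block (0.0190). Its difference ranged from 0.82 to 1.47 across the alternatives.

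In the homozygous tumor against normal, 571 probe sets were called (2 of them members), against 1203 (5) with the 12 arrays as separate samples, 940 (4) with the pair as a random block and 1261 (6) by the one-way F test that the methods name. The F test also took the 12 arrays as separate samples, and its p covers all 3 genotypes at once. A filter on the mean over all samples left 1 member called. In the homozygous against heterozygous tumors, 61 were called, against 498, 222 and 575 in the same order, 97 with no filter and 19 with the filter on the mean. Of members 1 was called, against 2 with no filter and 0 with the filter on the mean, which removes the Grm5 probe set (limma; 0 of 10 also at an unadjusted p under 0.05). Leaving out 1 sample at a time gave 64 to 654 called probe sets and 1 to 2 members in the homozygous tumor against normal, 33 to 234 probe sets in the homozygous against heterozygous tumors, and 3 to 7 members in heterozygous tumors against normal, where 7 were reported. The lowest counts came without a normal sample, and 330 were called in the homozygous tumor against normal without heterozygous sample 3-4. In the homozygous against heterozygous tumors, 234 were called without heterozygous sample 7-8 and 34 without 3-4. The cause was not tested. Centring on housekeeping genes shifted the median of all probe sets in the homozygous tumor to −0.14.

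Replicate numbers did not pair the samples: deviations of same-numbered samples correlated at 0.07, −0.02 and 0.00. The fits given next took arrays 1 and 2 of each group as separate samples. In both tumor genotypes these arrays are a pair that was averaged elsewhere, so the tumor spread is that between near-identical arrays. With the replicate block on arrays 1 and 2 of each group, 1413 probe sets and 6 members were called in the homozygous tumor against normal (1412 and 6 with no block), and 1283 and 4 in the homozygous against heterozygous tumors (1284 and 4 with no block).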
